A study of Homo sapiens with 6 samples.

Results

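The data described here are the RNA levels of 9 genes around the tumor suppressor p53 in LNCaP prostate cancer cells and in their enzalutamide-resistant derivative, LNCaP-enzaR. The genes were taken by symbol from the count table of 35554 genes, as regulators and direct targets of p53 other than inhibitors of cyclin-dependent kinases. They are MDM2, MDM4, GDF15, SESN1, FAS, BBC3, TP53I3, RRM2B and ZMAT3. All 9 were found in the table, and all 9 were among the 19711 genes with enough counts to be tested.

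LNCaP is an established human line derived from metastatic prostate cancer, and enzalutamide is a drug that blocks androgen signaling. According to the methods, LNCaP-enzaR was selected from LNCaP by continuous culture with enzalutamide and then kept on a lower concentration, so each line stands for 1 culture history. By the growth protocol in the labels, RNA sequencing was done on 3 flasks of parental LNCaP and 3 flasks of LNCaP-enzaR. The labels do not say whether enzalutamide was in the medium at harvest, and they call the flasks biological replicates without naming separate selections, so p-values measure the spread between flasks.

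p53 is a transcription factor that is stabilized by DNA damage and other stress. It switches on genes that halt the cell cycle, repair DNA, lower oxidative damage or start cell death. MDM2 is an E3 ubiquitin ligase that marks p53 for destruction and is itself switched on by p53, which closes a negative feedback loop, and its relative MDM4 binds p53 and blocks its activity as a transcription factor. LNCaP is widely used as a prostate cancer line in which p53 can still be activated.

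p53 binds DNA as a tetramer, and its response element is a pair of adjoining decamers, each with a 4-base core between purines and pyrimidines. The reference genome (GRCh38) was searched on both strands within 2000 bases on either side of the start of each gene's canonical transcript for 20-base elements without a spacer. Both cores had to read CATG or its variants CAAG, which is CTTG on the other strand, and CTAG, and at most 3 of the 12 other positions could depart from the p53 consensus. Such an element was present at 5 of the 9 genes (55.6%) and at 1819 of all 19673 tested genes with a window (9.25%). The 9 genes were chosen as regulators and direct targets of p53, so this share is not independent of that choice. With at most 1 departure allowed, the element was present at 1 of the 9 genes and at 68 of all genes (0.346%). In a separate search of shorter promoter windows, 1 of 8 of the genes (GDF15) and 114 of 27305 promoters (0.418%) had an element. The matching sequences are shown because this element is a feature that 5 of the genes share. They are written 5′ to 3′ on the strand of the gene with the 2 cores in capitals.
ZMAT3 element: aaaCAAGtccagaCATGcct
FAS element: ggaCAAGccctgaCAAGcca
GDF15 upstream element: catCTTGcccagaCTTGtct
GDF15 exonic element: agcCATGcccgggCAAGaac
BBC3 element: ctgCAAGtcctgaCTTGtcc
TP53I3 element: cagCTTGcccaccCATGctc

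The ZMAT3 element has 0 departures from the consensus and lies in intron 1, 1612 bases downstream of the start (chr3:179070188-179070207, minus strand). The FAS element has 2 departures and lies in intron 1 at 520 bases downstream (chr10:88991309-88991328, plus strand). The upstream GDF15 element has 2 departures and lies 840 bases before the start (chr19:18385308-18385327, plus strand), while the exonic one has 3 and lies in exon 1 at 38 bases downstream (chr19:18386186-18386205). The BBC3 element has 3 departures and lies 130 bases before the start (chr19:47231320-47231339, minus strand). The TP53I3 element also has 3 and lies 340 bases before the start (chr2:24085165-24085184, minus strand). The upstream elements still fall between the annotated ends of their genes, which have transcripts that begin further away. No stretch of these letters was present in the windows of MDM2, MDM4, SESN1 and RRM2B. Elements with a spacer, with other cores or outside the windows were not sought. The search therefore does not show that these genes lack a p53 element. A match describes the letters alone, since binding was not measured.

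Past the threshold, LNCaP-enzaR had more RNA of 5 of the 9 genes (55.6%) and less of 0. The 5 were FAS, TP53I3, RRM2B, ZMAT3 and SESN1, with increases between 0.62 and 0.91 on the log2 scale. The threshold required an adjusted p no higher than 0.05 and a difference of 1.5-fold or more, up or down, by edgeR's quasi-likelihood test with Benjamini-Hochberg adjustment over all genes tested. The 4 genes that did not pass were GDF15 and BBC3, with positive log2 fold changes, and MDM2 and MDM4, with negative ones.

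These counts stand against a large difference between the lines as a whole. Past the same threshold were 42.7% of all tested genes, 23.3% of them higher and 19.5% lower in LNCaP-enzaR (shares of all tested genes). An adjusted p of at most 0.05 without a limit on the fold was reached by 9 of the 9 genes and by 66.3% of all genes. The 3 libraries of each line did not overlap for 9 of the 9 genes and for 70.6% of all genes. The median log2 fold change was 0.62 over the 9 genes, 0.01 over all tested genes and -0.08 over the 10769 genes that averaged 5 CPM or more (counts scaled to 1000000 per library, after TMM scaling between libraries).

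Libraries held 77759122 to 98616465 counts. The mitochondrial genome supplied 6.72% to 7.06% of the counts in parental LNCaP and 14.7% to 15.5% in LNCaP-enzaR, and without its genes the same 5 of the 9 genes passed. LNCaP-enzaR replicate 1 stood apart from the other libraries of its line. Its counts differed from theirs with a chi-square per degree of freedom of 28.2 and 35.6, against 6.97 between replicates 2 and 3 and 5.56 to 9.06 among the parental libraries. The log2 fold changes of the 9 genes and the count of p53 regulators past the threshold are therefore also given without it. Fold changes of the other named genes are given with all libraries only. As a check of identity, 7 luminal prostate markers summed to 4631 to 4753 CPM in parental LNCaP and 2912 to 3212 CPM in LNCaP-enzaR, with 5 of the 7 lower and 1 (KRT8) higher past the threshold. Markers of immune, endothelial, stromal and basal cells (10 genes) summed to 20.8 to 24.1 CPM and 9.87 to 11.2 CPM, and CD3E and KRT5 had at most 3 counts in every library. Most of these sums came from stromal COL1A1 (means of 13.4 and 4.29 CPM) and endothelial VWF (5.74 and 4.15 CPM). COL1A1 and basal KRT14 (1.34 and 0.592 CPM) were lower past the threshold. Whether either change in markers has a part in the results below was not tested. In bulk RNA, fewer cells that express a gene and less RNA per cell cannot be told apart.

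**Figure D1:**
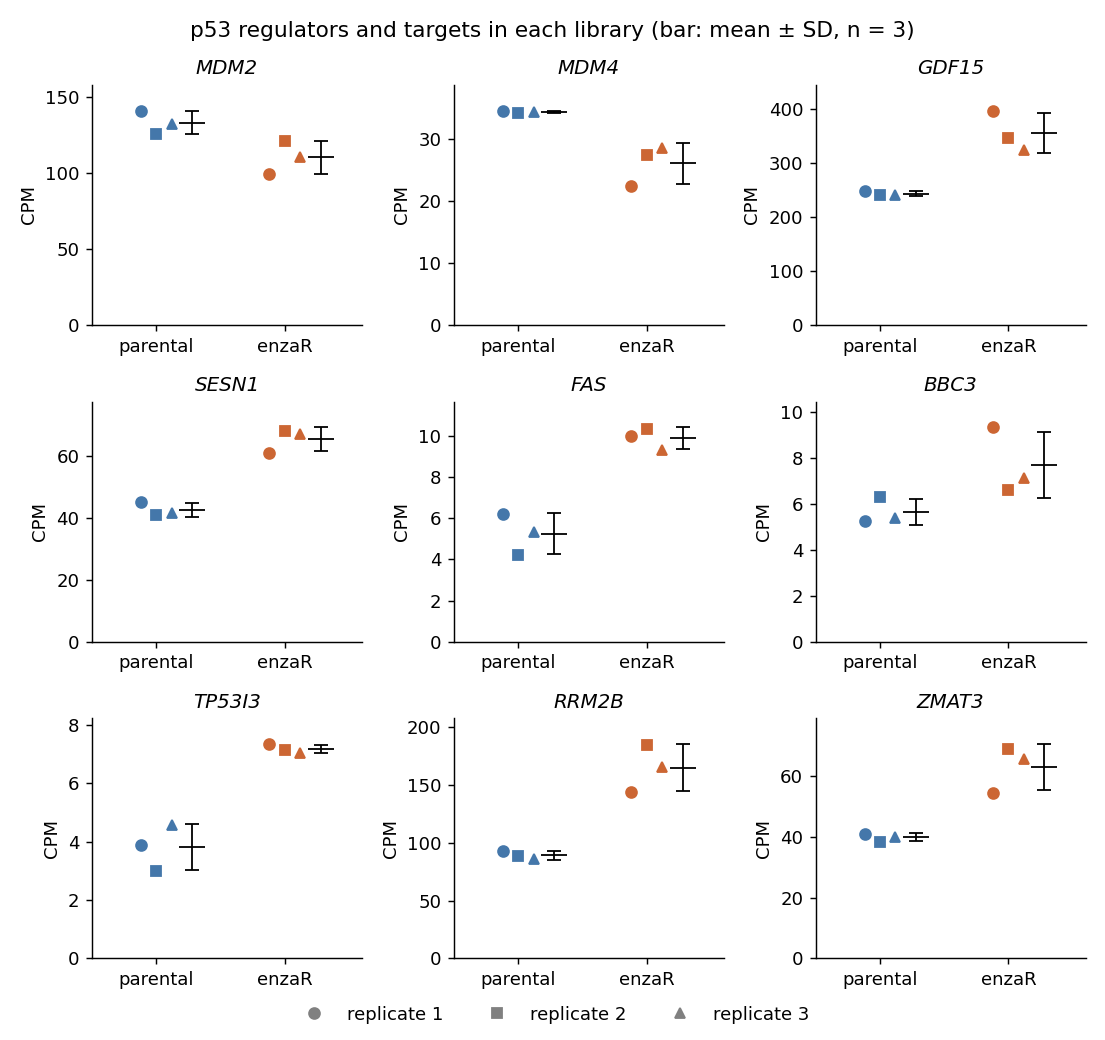
CPM of the 9 genes in each library of parental LNCaP (blue) and LNCaP-enzaR (orange), with the mean and SD (n = 3) beside the points and each vertical axis starting at 0. The groups do not overlap for any of the 9 genes: MDM2 and MDM4 lie lower in LNCaP-enzaR and the other 7 lie higher.

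The regulators MDM2 and MDM4 had negative log2 fold changes that did not reach 1.5-fold. MDM2 (ENSG00000135679.26, chr12:68808177-68845544, plus strand) was at 141.1, 125.7 and 132.6 CPM in the parental libraries and at 99.5, 120.8 and 110.7 CPM in LNCaP-enzaR. The highest LNCaP-enzaR library lay just below the lowest parental one. The means were 133.2 ± 7.72 and 110.3 ± 10.7 CPM (SD, n = 3 each), and the log2 fold change of -0.27 (SE 0.0718, 95% interval -0.43 to -0.12) had an adjusted p of 0.00407 by edgeR but did not reach 1.5-fold. Without LNCaP-enzaR replicate 1, which was the lowest library, the log2 fold change of MDM2 was -0.19. Exons of other genes cover 14.7% of the exonic bases of MDM2. Most of these belong to genes that are not in the table, and the one antisense neighbor that is, the carboxypeptidase gene CPM, had 1 to 17 counts per library.

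MDM4 (chr1:204516379-204558120, plus strand) was at 34.6, 34.3 and 34.3 CPM in parental LNCaP and at 22.4, 27.4 and 28.6 CPM in LNCaP-enzaR. All 3 parental libraries were close together and above all 3 of the resistant line, of which replicate 1 was the lowest. The log2 fold change was -0.40 (SE 0.0843, 95% interval -0.58 to -0.21, adjusted p 0.000825), also short of 1.5-fold, and -0.29 without replicate 1. Per kb of transcript, MDM4 stood at 0.193 ± 0.0103 of the level of MDM2 in parental LNCaP and at 0.176 ± 0.0142 in LNCaP-enzaR, and the libraries overlapped in this ratio.

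The genes whose profile over the 6 libraries was most like that of MDM2 were sought among genes that averaged 5 CPM or more. The measure was the Euclidean distance between log2 CPM values, each centered on the gene's own mean. The nearest were ZNF527, a zinc-finger gene (distance 0.0356), TMED8 (0.0673) and FRS2, an adaptor of fibroblast growth factor receptors (0.0693). FRS2 lies on the same chromosome as MDM2 (chr12:69470349-69579793) and was at 40.0 ± 2.86 CPM in parental LNCaP and 33.3 ± 2.81 CPM in LNCaP-enzaR. TMED8 and ZNF527 lie on chromosomes 14 and 19. The likeness is over 6 libraries only, 3 of each line.

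Among the targets, FAS and BBC3 are described together here as genes that act in cell death. FAS (chr10:88990531-89017059, plus strand) encodes the death receptor that binds FAS ligand and recruits caspase-8. It was at 6.20, 4.21 and 5.33 CPM in parental LNCaP and at 9.99, 10.4 and 9.33 CPM in LNCaP-enzaR. Every LNCaP-enzaR library was above every parental one, and the spread was wider among the parental libraries. FAS rose by 0.91 on the log2 scale (SE 0.124, 95% interval 0.65 to 1.18, adjusted p 1.48e-05), with the same 0.91 without LNCaP-enzaR replicate 1. FAS is the gene with the least RNA per kb in parental LNCaP among the 9, where its libraries held 383 to 574 counts, against 862 to 926 in LNCaP-enzaR.

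FAS is annotated over a longer region in the later annotation used for exons (GENCODE v44) than in the table. Over the 57 of its 61 later transcripts that lie inside the table's coordinates, 13.6% of the exonic bases are shared with genes on the opposite strand, among them 387 bases (3.40%) with ACTA2, which encodes smooth muscle actin. The other such gene had 5 to 15 counts per library. ACTA2 had 142 to 223 counts in the parental libraries and 736 to 853 in LNCaP-enzaR. The strand setting of the counting is not given in the sources used here, so reads of the shared stretch cannot be told apart, and their part in the FAS value was not tested.

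BBC3 (chr19:47220822-47232766, minus strand) encodes PUMA, a BH3-only protein that binds anti-apoptotic BCL-2 proteins. It was at 5.27, 6.30 and 5.40 CPM in parental LNCaP and at 9.33, 6.62 and 7.13 CPM in LNCaP-enzaR. The groups were separated by little, and LNCaP-enzaR replicate 1 was far above the other LNCaP-enzaR libraries. The log2 fold change was 0.44 (SE 0.131, 95% interval 0.16 to 0.72, adjusted p 0.00821) and 0.29 (adjusted p 0.0237) without replicate 1, so BBC3 did not reach 1.5-fold with or without that library.

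Of the genes that act with FAS, 2 fell. CASP8, the initiator caspase of the receptor, fell by 1.05 on the log2 scale (SE 0.097, adjusted p 2.51e-07), with 24.5 ± 2.02 CPM in parental LNCaP and 11.8 ± 1.504 CPM in LNCaP-enzaR. CFLAR, which encodes the caspase-8 inhibitor FLIP, fell by 0.79 on that scale (SE 0.0694, adjusted p 1.63e-07), with 31.1 ± 1.09 and 18.1 ± 0.933 CPM. The adaptor FADD was at 23.7 ± 0.938 and 20.7 ± 1.94 CPM with overlapping groups (log2 fold change -0.19, adjusted p 0.0434). FASLG, the ligand, had no row in the table used here.

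In the control of growth, metabolism and oxidative stress, SESN1 (chr6:108986437-109094819, minus strand) encodes a sestrin, one of the stress-induced proteins that restrain the growth kinase mTOR. It was at 45.1, 40.8 and 41.7 CPM in parental LNCaP and at 60.9, 68.1 and 67.1 CPM in LNCaP-enzaR. All LNCaP-enzaR libraries were higher than all parental libraries. SESN1 rose by 0.62 on the log2 scale, or 1.54-fold (SE 0.0663, 95% interval 0.48 to 0.76, adjusted p 1.25e-06), and by 0.68 without LNCaP-enzaR replicate 1. The interval includes 1.5-fold, which is 0.585 on the log2 scale.

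The other sestrins were also above their parental level. SESN3, which is best known as a target of FOXO factors, was at 127.6, 124.0 and 123.0 CPM in parental LNCaP and at 296.1, 369.8 and 369.0 CPM in LNCaP-enzaR. It rose by 1.47 on the log2 scale (SE 0.0769, adjusted p 5.57e-10). SESN2 was at 45.4 ± 4.57 and 68.1 ± 5.97 CPM, and its log2 fold change of 0.58 (95% interval 0.41 to 0.76, adjusted p 2.03e-05) fell just short of 1.5-fold. The ratio of SESN1 to SESN3 per kb of transcript was 0.575 ± 0.0205 in parental LNCaP and 0.322 ± 0.0223 in LNCaP-enzaR, without overlap, while the ratio of SESN1 to SESN2 overlapped between the lines (0.576 ± 0.0588 and 0.592 ± 0.0814).

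TP53I3 (chr2:24077433-24085861, minus strand) encodes a quinone oxidoreductase linked to the formation of reactive oxygen species. It was at 3.89, 3.01 and 4.58 CPM in parental LNCaP and at 7.35, 7.16 and 7.05 CPM in LNCaP-enzaR. The resistant libraries were nearly equal and all above the parental ones. TP53I3 rose by 0.91 on the log2 scale (SE 0.134, 95% interval 0.62 to 1.20, adjusted p 3.10e-05) and by 0.90 without LNCaP-enzaR replicate 1. Of its exonic bases, 3.46% are shared with FAM228B on the opposite strand, which had 259 to 260 counts in the parental libraries and 523 to 674 in LNCaP-enzaR. The part of that overlap in the TP53I3 value was not tested.

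RRM2B (chr8:102204502-102238961, minus strand) encodes the p53-inducible small subunit of ribonucleotide reductase, which makes deoxyribonucleotides for DNA repair and for mitochondrial DNA in cells outside S phase. It was at 93.2, 88.6 and 85.8 CPM in parental LNCaP and at 144.2, 184.8 and 165.8 CPM in LNCaP-enzaR. Every library of the resistant line was far above the parental libraries, although its own libraries differed more among themselves. RRM2B rose by 0.89 on the log2 scale (SE 0.0782, 95% interval 0.72 to 1.05, adjusted p 1.59e-07) and by 0.98 without LNCaP-enzaR replicate 1.

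The other subunits of the enzyme fell. RRM2, the small subunit used in S phase, was at 311.9 ± 9.84 CPM in parental LNCaP and 87.5 ± 2.41 CPM in LNCaP-enzaR (adjusted p 1.59e-12, log2 fold change -1.83, SE 0.0541). RRM1, the large subunit, was at 284.7 ± 3.75 and 100.8 ± 5.20 CPM (adjusted p 1.56e-11, log2 fold change -1.50, SE 0.0557). The ratio of RRM2B to RRM2 per kb of transcript was 0.197, 0.197 and 0.192 in the parental libraries and 1.16, 1.44 and 1.26 in LNCaP-enzaR. RRM2B was thus the smaller pool of small-subunit RNA in every parental library and the larger one in every LNCaP-enzaR library.

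**Figure D2:**
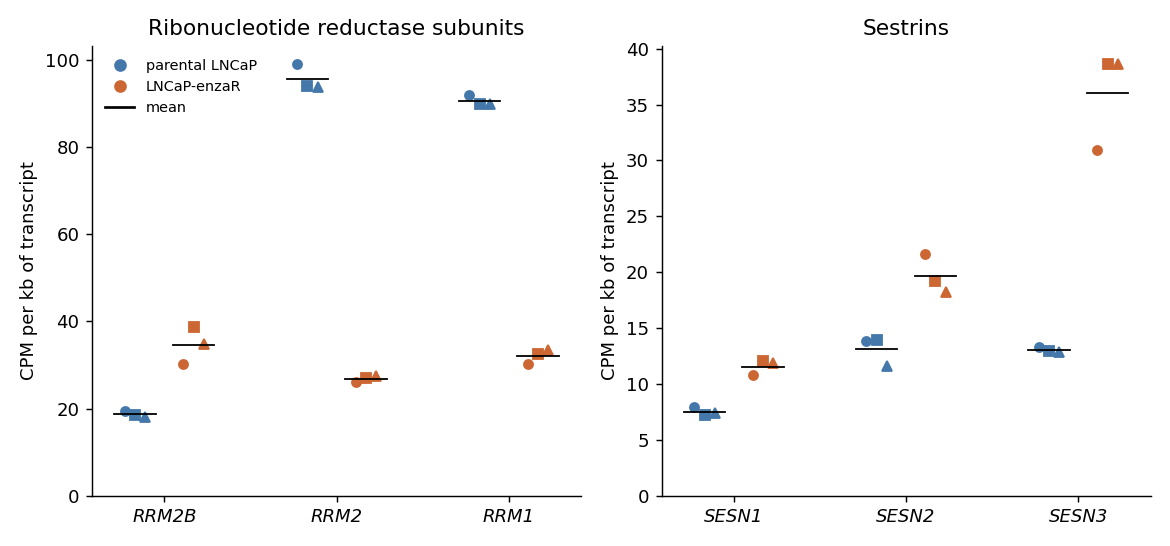
CPM per kb of canonical transcript for the ribonucleotide reductase subunits (left) and the sestrins (right) in each library, with parental LNCaP in blue, LNCaP-enzaR in orange, 1 marker shape for each replicate number and a line at the mean (n = 3). RRM2B is higher in LNCaP-enzaR while RRM2 and RRM1 are lower, and all 3 sestrins lie higher in LNCaP-enzaR, SESN3 by the most.

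ZMAT3 (chr3:178960121-179072215, minus strand) encodes an RNA-binding zinc-finger protein that acts on the splicing and stability of transcripts downstream of p53. It was at 41.0, 38.4 and 40.0 CPM in parental LNCaP and at 54.4, 68.7 and 65.6 CPM in LNCaP-enzaR. The parental libraries were close together, and LNCaP-enzaR replicate 1 was the lowest of its line but above all of them. ZMAT3 rose by 0.66 on the log2 scale (SE 0.0804, 95% interval 0.49 to 0.83, adjusted p 4.81e-06) and by 0.76 without that library. It is the gene with the element that matches the consensus at every position.

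GDF15 (chr19:18374731-18389176, plus strand) encodes a secreted cytokine of the TGF-beta superfamily that is released by stressed cells and is made by the prostate. It was at 248.2, 240.9 and 241.8 CPM in parental LNCaP and at 397.6, 346.8 and 325.2 CPM in LNCaP-enzaR. All libraries of the resistant line were higher, with replicate 1 the highest. The log2 fold change was 0.55, or 1.46-fold (SE 0.0675, 95% interval 0.40 to 0.69, adjusted p 5.30e-06), which did not pass the limit of 1.5-fold. GDF15 passed that limit without LNCaP-enzaR replicate 3 (log2 fold change 0.62) and with upper-quartile scaling (0.65), and was at 0.47 without LNCaP-enzaR replicate 1. GFRAL, its receptor, had no row in the table used here.

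GDF15 is also switched on by the integrated stress response through ATF4 and CHOP, so the genes of that response were counted. Of 7 tested, 2 were higher and 2 lower past the threshold (28.6% each, near the 23.3% and 19.5% of all tested genes), with a median log2 fold change of -0.50. ATF3 (26.4 ± 1.71 to 43.6 ± 1.85 CPM, log2 fold change 0.72, adjusted p 3.86e-07) and DDIT3, which encodes CHOP (0.66, adjusted p 1.70e-05), were higher. TRIB3 (106.4 ± 5.70 to 59.1 ± 5.59 CPM, -0.85, adjusted p 1.03e-07) and CHAC1 (-0.70, adjusted p 1.69e-05) were lower. ATF4 itself was at 525.4 ± 21.8 and 359.5 ± 22.2 CPM, a log2 fold change of -0.55 that did not reach 1.5-fold.

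**Figure D3:**
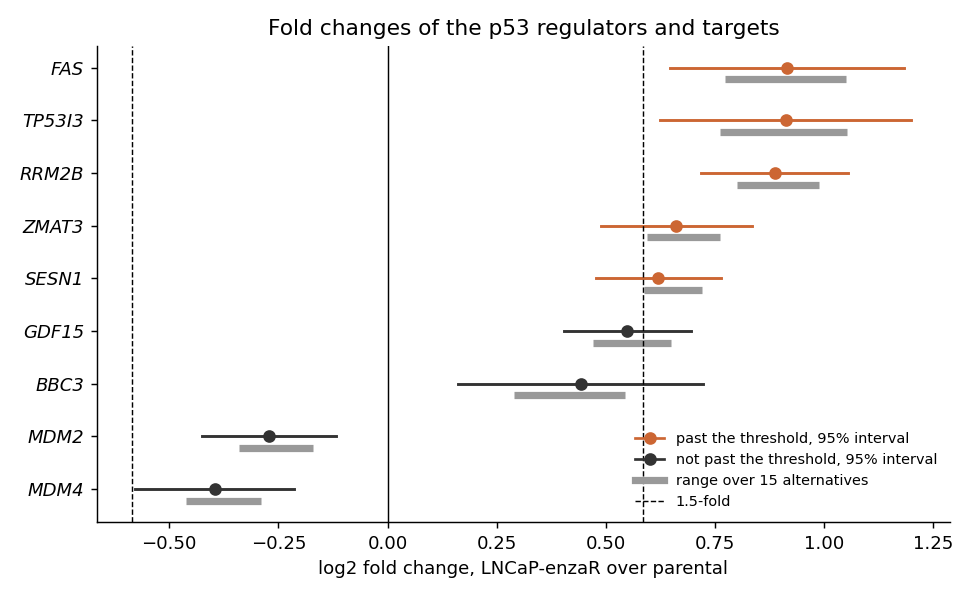
Log2 fold change of each of the 9 genes, LNCaP-enzaR over parental LNCaP, with its 95% interval (thin bar) and the range over 15 alternative analyses (grey bar), and dashed lines at 1.5-fold. FAS, TP53I3, RRM2B, ZMAT3 and SESN1 lie past the upper dashed line, GDF15 (0.55) lies just inside it, and MDM2 (-0.27) and MDM4 (-0.40) lie below 0.

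Compared per kb of canonical transcript, the 9 genes spanned a wide range of levels. In parental LNCaP the order was GDF15 (203 CPM per kb), RRM2B (18.7), MDM2 (17.8), SESN1 (7.51), ZMAT3 (4.45), MDM4 (3.42), BBC3 (3.06), TP53I3 (2.32) and FAS (1.42). The libraries overlapped between RRM2B and MDM2 and between MDM4 and BBC3, so these neighbors were not ordered. In LNCaP-enzaR, RRM2B (34.6) stood clear of MDM2 (14.7), and MDM4 (2.60) was the lowest of the 9, with libraries that overlapped those of FAS (2.68). The level of GDF15 over that of MDM2 was 11.4 ± 0.497 in parental LNCaP and 20.4 ± 3.95 in LNCaP-enzaR, without overlap.

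LNCaP-enzaR replicate 1 did not shift the 9 genes in 1 direction. Relative to the mean of replicates 2 and 3 it was higher for BBC3 (0.44 on the log2 scale) and GDF15 (0.24) and lower for MDM4 (-0.32), ZMAT3 (-0.30), RRM2B (-0.28), MDM2 (-0.22) and SESN1 (-0.15), while FAS (0.02) and TP53I3 (0.05) were level with them. Without it the same 5 genes passed the threshold.

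CDKN1A, which encodes the cyclin-dependent kinase inhibitor p21 and is the best known p53 target, was not among the 9 genes. It rose from 171.9 ± 14.6 to 442.3 ± 37.6 CPM (adjusted p 8.20e-10, log2 fold change 1.36, SE 0.0742). Other genes widely described as direct targets of p53 were then counted from a list of 38, of which 36 were tested and TP53AIP1 and EDA2R were too low. Of the 36, 11 were higher (30.6%) and 10 lower (27.8%) past the threshold, and 15 did not pass, against 23.3% and 19.5% of all genes. Their median log2 fold change was -0.07.

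The increases with the highest fold changes at 5 CPM or more were TP53INP1, BTG2 and GADD45A. TP53INP1, a stress protein of autophagy and cell death, rose from 227.5 ± 3.79 to 537.9 ± 63.6 CPM (log2 fold change 1.24, SE 0.0739). The antiproliferative gene BTG2 rose from 70.6 ± 2.04 to 149.0 ± 5.10 CPM (1.08, SE 0.0555), and the growth arrest gene GADD45A rose from 16.2 ± 0.883 to 30.7 ± 2.77 CPM (0.92, SE 0.0801). Their adjusted p-values were 2.18e-09, 4.59e-10 and 1.38e-07.

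The decreases with the lowest fold changes were those of E2F7, DRAM1 and DDB2. E2F7, a repressor of cell cycle genes, fell from 28.3 ± 0.901 to 5.67 ± 0.422 CPM (log2 fold change -2.32, SE 0.0812). DRAM1, a lysosomal regulator of autophagy, fell from 14.6 ± 0.308 to 5.18 ± 0.190 CPM (-1.50, SE 0.0836). DDB2, a sensor of ultraviolet damage in nucleotide excision repair, fell from 37.4 ± 0.961 to 13.5 ± 1.44 CPM (-1.47, SE 0.0811). Their adjusted p-values were 8.27e-12, 1.08e-09 and 9.53e-10.

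Further targets are named here after their values were seen. In mitochondrial cell death, where BBC3 acts, PMAIP1, which encodes NOXA, fell by 1.22 on the log2 scale (adjusted p 1.95e-07), APAF1, the scaffold of the apoptosome, fell by 0.75 (2.72e-05) and BAX, the pore-forming protein, fell by 0.71 (2.30e-07). The TRAIL receptor genes, relatives of FAS, did not move together. TNFRSF10A fell by 0.83 (7.36e-08), TNFRSF10B had a log2 fold change of -0.24 that did not reach 1.5-fold, and the decoy receptor gene TNFRSF10C rose by 0.81 (0.00227) at only 1.32 ± 0.346 CPM in parental LNCaP. PPM1D, the phosphatase that turns p53 signaling off and is part of another feedback loop, fell from 32.9 ± 1.24 to 18.98 ± 1.04 CPM (log2 fold change -0.80, adjusted p 1.45e-07). TIGAR and GLS2, which act in metabolism, rose by 0.90 and 1.501, at only 4.30 ± 0.233 and 0.783 ± 0.117 CPM in parental LNCaP. FDXR (log2 fold change 0.53) and SCO2 (0.01), also from this list, did not pass. Other genes share 82.8% of the exonic bases of GLS2, mostly SPRYD4 on the opposite strand (2194 to 2764 counts in parental LNCaP and 3169 to 3576 in LNCaP-enzaR), and 19.4% of those of TIGAR, so the GLS2 value in particular is uncertain. The p53 element of the search above was present at 12 of the 36 targets (33.3%), which were likewise chosen as described targets of p53.

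**Figure D4:**
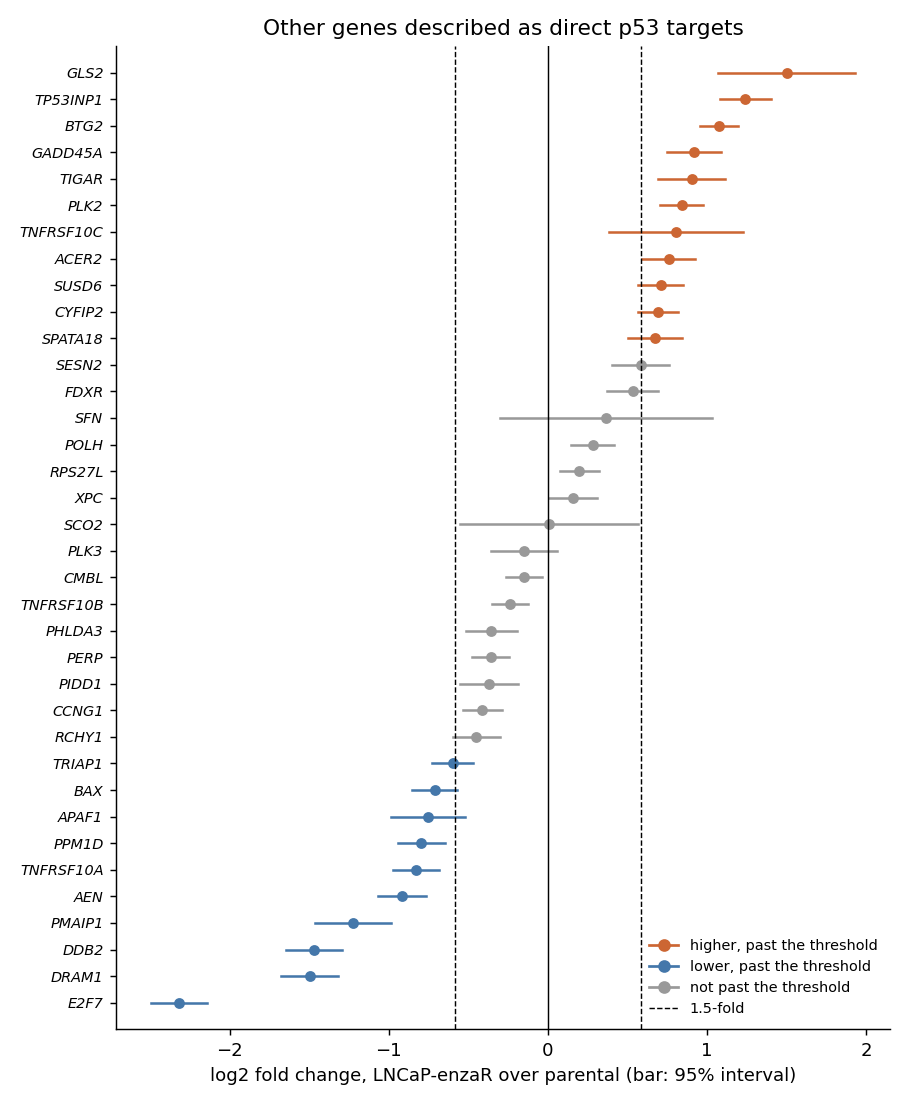
Log2 fold change, LNCaP-enzaR over parental LNCaP, of the 36 other tested genes described as direct p53 targets, with 95% intervals and dashed lines at 1.5-fold. The 11 orange genes are higher and the 10 blue genes lower past the threshold, from GLS2 (1.501, a gene that shares most of its exonic bases with others) to E2F7 (-2.32), and 15 grey genes did not pass.

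Of 20 genes whose products act on p53 or MDM2, 1 was higher (5.0%) and 4 were lower (20%) past the threshold, against 23.3% and 19.5% of all tested genes, so the share that was lower was at the background. Their median log2 fold change was -0.26. The checkpoint kinase genes fell most, CHEK1 from 64.7 ± 1.48 to 17.4 ± 0.584 CPM (adjusted p 5.06e-12, log2 fold change -1.89, SE 0.063) and CHEK2 from 35.7 ± 1.15 to 11.9 ± 1.19 CPM (-1.59, SE 0.0803, adjusted p 3.85e-10). BRD7, a cofactor of p53, fell by 0.66 (adjusted p 1.50e-07). ATM, the kinase that signals double-strand breaks, fell by 0.65 (adjusted p 2.32e-05). ATR, another kinase gene among the 20, was at 42.0 ± 1.08 and 41.9 ± 3.6 CPM with overlapping groups (log2 fold change -0.004, adjusted p 0.965). Both ATM and ATR are named here after their values were seen. PPP1R13B, which encodes the p53 cofactor ASPP1, rose by 0.61 (adjusted p 1.63e-06). Without LNCaP-enzaR replicate 1, 3 of the 20 passed, 0 of them higher and 3 lower. The genes that no longer passed are not named here. For ATM, the LNCaP-enzaR libraries were at 12.35, 13.66 and 15.65 CPM, with replicate 1 the lowest, against 21.8 ± 1.57 CPM in parental LNCaP. BRD7 shares 41.9% and CHEK1 13.4% of its exonic bases with other genes, so these values carry that uncertainty. The same holds for FADD (59.2%), DDIT3 (39.6%), TNFRSF10C (33.0%), TNFRSF10A (16.7%) and CFLAR (12.1%).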

How the data were processed

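The authors sequenced polyadenylated RNA, trimmed reads with Cutadapt, aligned them to GRCh38 with STAR and GENCODE annotation and counted them per gene with featureCounts. The deposited values are raw counts, not normalized. Strand setting and treatment of multimapping reads are not given in the sources used here. Coordinates are those of the deposited table. Strand, transcripts and exon overlap came from GENCODE v44 (99.8% of genes matched), and element sequences came from the same build.

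Counts were analyzed with edgeR 4.0.16 in R 4.3.3. The filter filterByExpr kept 19711 genes with 99.96% of the counts, scaling was by TMM, and the robust quasi-likelihood test had no covariates. CPM was computed here per TMM-scaled library, and adjusted p-values cover all tested genes. Limits from counts cover counting error only. Groups and replicate numbers came from sample titles. The methods name DESeq2, which was run as an alternative (1.42.0).

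The 9 genes and the lists were chosen with earlier results of these data known. Named genes were all 9, their partners and paralogues, CDKN1A, from each list the 3 highest and 3 lowest past the threshold with at least 5 CPM and no overlap, and the 3 nearest to MDM2. ATF4, the cell type markers and the genes with shared exons were named outside this rule. Other targets and regulators are said to be named after their values were seen. On simulated counts (19191 genes), the test recovered 70.9% of 103 genes changed 2-fold and 96.6% of 88 changed 4-fold, with 6 false calls. The simulation changed far fewer genes than differ between the lines. It held no changes below 2-fold, so it does not describe differences as small as those of the 9 genes.

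Alternatives were 3 other scalings (RLE, upper quartile, library totals), DESeq2, 2 other filters (none, or 10 or more counts everywhere), a replicate block, restriction to protein-coding genes, omission of single libraries, and other thresholds. Leaving out the mitochondrial genes was chosen after seeing the data.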

Additional observations from a re-analysis of the deposited data

How the results depend on the processing

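The log2 fold changes of the 9 genes kept their sign under all 15 alternatives, and 8 of the 9 kept their side of the threshold. The exception was GDF15 (0.47 to 0.65), which passed with upper-quartile scaling and without LNCaP-enzaR replicate 3. The ranges were 0.77 to 1.05 for FAS, 0.76 to 1.05 for TP53I3, 0.80 to 0.99 for RRM2B, 0.59 to 0.76 for ZMAT3, 0.59 to 0.72 for SESN1, 0.29 to 0.54 for BBC3, -0.34 to -0.17 for MDM2 and -0.46 to -0.29 for MDM4. With no minimum fold, 13074 genes, 9 of the 9 genes, 32 other targets and 16 regulators passed. At a minimum of 2-fold, 5561 genes, 0 of the 9 genes, 7 other targets and 2 regulators passed. These thresholds change the counts by their construction. Upper-quartile scaling left 3 of the 5 regulators and moved the median of all genes by 0.10 (log2). Of its calls, the percentage that were higher went from 54.5% to 60.9%. Leaving out 1 library at a time gave 5 to 6 of the 9 genes, 21 to 23 other targets and 3 to 5 regulators, with 3 regulators without LNCaP-enzaR replicate 1. The cause of these changes was not tested.

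Same-numbered libraries of both lines did not deviate together (correlations of deviations -0.07, 0.00 and -0.05), so no pairing by number was seen. These correlations cannot show whether same-numbered flasks were handled together. With the replicate block, 8212 genes (8174 shared with the 8425), the same 5 of the 9 genes, 22 other targets and 5 regulators passed. DESeq2 called 8321 genes and the same 5 of the 9. With 3 flasks per line, the intervals of SESN1, ZMAT3, GDF15 and BBC3 include 1.5-fold, so their side of that limit is not settled at this spread.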
